A study of Mus musculus with 9 samples.

Results

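The neuronal immediate early genes Fos, Fosb, Junb, Egr1, Nr4a1, Npas4, Arc, Dusp1, Ier2 and Btg2 were followed in bulk RNA sequencing of mouse cerebellum. These 10 genes were taken by symbol, as a fixed list, from 53924 rows with a gene name, and each had a single row. The 9 libraries fall into 3 groups of 3, namely control mice given saline, 3AP mice given 3-AP (3-acetylpyridine), and PLX3AP mice given 3-AP after PLX3397. 3-AP is a nicotinamide analogue that kills neurons of the inferior olive, the source of the climbing fibres that excite Purkinje cells, and it is used to produce ataxia. PLX3397, a kinase inhibitor, blocks the CSF1 receptor and is given to remove microglia, which need that receptor to survive. Both treated groups received 3-AP, and a group given PLX3397 alone was not analysed here, so an effect of PLX3397 itself cannot be told apart from its effect on the response to 3-AP. Strain, sex, age, doses and the interval between treatment and tissue collection are not given in the labels. The labels number the libraries of a group without saying that each came from a separate animal, so p-values measure the spread between these libraries, which may in part be technical.

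Immediate early genes are transcribed within minutes of a stimulus, without new protein synthesis, and their transcripts decay quickly. In neurons, calcium entry and the ERK pathway phosphorylate transcription factors that are already bound at their promoters, among them CREB at cyclic AMP response elements and the SRF-ELK complex at serum response elements. Some of their products are transcription factors that switch on later genes, such as AP-1, a dimer of FOS and JUN proteins. Others act at synapses or shut the signal down again, and a level measured at one time reflects the activity shortly before the tissue was taken. In the cerebellum, climbing fibre activity is a known trigger of Fos in Purkinje cells, while glia and endothelial cells can also express most of these genes.

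The tissue label was checked on marker lists. All 6 granule cell markers and all 6 Purkinje cell markers were detected and tested, and their summed levels per library were 3382 to 4221 CPM (counts scaled to a common library size, with TMM factors) and 6770 to 8463 CPM. Estimated counts per library summed to 18452256 to 22358447, and the test covered 16634 genes after a filter on low counts, with all 10 members among them. The 8 microglial markers summed to 159 to 174 CPM in control, 310 to 367 CPM in 3AP and 91.6 to 140 CPM in PLX3AP libraries. Of 6 genes listed for hindbrain outside the cerebellum, 3 were tested. The 6 genes summed to 140 to 147 CPM in control, 84.9 to 161 CPM in 3AP and 132 to 137 CPM in PLX3AP libraries. Slc17a6 and Slc6a5, at means of 77.5 and 41.2 CPM in control, are also expressed by neurons of the cerebellum. The sum of the 6 genes therefore does not measure tissue from outside it. Among them, Slc17a6 was at 20.9 CPM in 3AP replicate 2 and at 86.0 and 96.7 CPM in 3AP replicates 1 and 3. Whether dissection differed between libraries was not tested. A bulk library cannot tell fewer cells of a type from less RNA per cell.

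Promoters of 4 of the genes are shown. Of the 3 AP-1 genes, Fos and Junb had the lowest and highest fitted difference in 3AP against control, though neither passed the test. Btg2 and Dusp1 hold a full palindromic cyclic AMP response element. RefSeq, on GRCm38.p6, gave a promoter for 7 of the 10 genes, and the 250 bases before the start annotated there were read for each. There was no entry for Arc, Egr1 or Ier2. The windows of Dusp1, Nr4a1 and Npas4 lie inside the GENCODE gene spans given below, whose outer ends differ from the RefSeq starts. The windows run 5′ to 3′ along the strand of the gene and lie at chr12:85473640-85473889 on the plus strand for Fos, and on the minus strand at chr8:84978749-84978998 for Junb, chr1:134079156-134079405 for Btg2 and chr17:26508523-26508722 for Dusp1. For Dusp1 the 200 bases that lie outside the gene's annotated exons are shown. Capitals mark TGACG, the half-site of the cyclic AMP response element, on either strand, and where both strands match they join to TGACGTCA.
Fos: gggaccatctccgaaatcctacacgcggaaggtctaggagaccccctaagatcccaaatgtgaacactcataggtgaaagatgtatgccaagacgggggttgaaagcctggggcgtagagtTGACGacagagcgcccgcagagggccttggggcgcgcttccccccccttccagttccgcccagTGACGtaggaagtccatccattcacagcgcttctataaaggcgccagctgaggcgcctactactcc
Junb: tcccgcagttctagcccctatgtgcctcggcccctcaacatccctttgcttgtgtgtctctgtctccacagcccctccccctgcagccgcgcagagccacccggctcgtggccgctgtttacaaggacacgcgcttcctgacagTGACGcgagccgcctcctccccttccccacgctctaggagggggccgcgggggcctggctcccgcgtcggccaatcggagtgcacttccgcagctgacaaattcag
Btg2: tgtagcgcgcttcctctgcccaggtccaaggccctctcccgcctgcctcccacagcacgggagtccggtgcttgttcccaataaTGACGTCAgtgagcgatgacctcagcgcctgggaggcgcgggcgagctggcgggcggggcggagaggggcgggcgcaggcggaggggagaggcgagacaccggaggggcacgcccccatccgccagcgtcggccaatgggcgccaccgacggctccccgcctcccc
Dusp1: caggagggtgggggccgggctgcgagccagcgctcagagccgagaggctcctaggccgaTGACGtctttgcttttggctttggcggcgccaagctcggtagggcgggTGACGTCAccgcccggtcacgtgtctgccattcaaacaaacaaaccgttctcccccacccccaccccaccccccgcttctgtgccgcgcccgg

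TGACG was found in 7 of the 7 windows, against 17.8% of all 32851 mouse promoter windows of that length and 26.7% of the 10574 windows at least as rich in G and C as the window of Fos, the lowest of the members at 58.4%. Numbered from the start of transcription, Btg2 had the palindrome TGACGTCA at -166 and Dusp1 at -143, and Junb had a single TGACG at -106. TGACGTCA was present in 1.55% of all windows and in 2.68% of those at least as rich in G and C as that of Fos. The CArG box of SRF (CC, then 6 letters of A or T, then GG), the EGR site GCGTGGGCG and the AP-1 site TGANTCA, where N is any base, were in 0 of the 7 windows, and in 1.47%, 0.536% and 6.75% of all windows. In the windows at least as rich in G and C as that of Fos, these shares were 0.965%, 1.36% and 3.15%. TGACG forms part of TGACGTCA, so their matches overlap. All motifs were searched on both strands. A match is a run of letters and not a measured binding site, and the absence of one applies to these 250 bases alone.

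None of the 10 genes passed the test in any of the 3 comparisons, with edgeR's quasi-likelihood test and p-values adjusted by Benjamini-Hochberg over all 16634 genes. In 3AP against control, 4.93% of all tested genes passed (820), against 0 of the 10. In PLX3AP against 3AP it was 3.73% of all tested genes (621), and in PLX3AP against control 0.12% (20). At an unadjusted p under 0.05, 2 members stood out in 3AP against control (Junb and Btg2), 1 in PLX3AP against 3AP (Junb) and 1 in PLX3AP against control (Btg2), where 17%, 12.1% and 9.35% of all tested genes did. DESeq2 called 1, 0 and 0 members in these comparisons, the 1 being Junb, and limma-voom called 0, 0 and 0.

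The median log2 fold change of the 10 genes was 0.17 in 3AP against control, -0.01 in PLX3AP against 3AP and 0.17 in PLX3AP against control, beside medians of 0.00, -0.01 and 0.00 over all tested genes. Values above 0 were seen for 8, 4 and 9 of the 10, and for 50.3%, 48.2% and 50.4% of all tested genes. The comparisons share their groups, so the first and the last rest on the same 3 control libraries. These counts moved with single libraries. Without control replicate 1, 6 of 10 values were above 0 in 3AP and 7 of 10 in PLX3AP against control, with medians of 0.10 and 0.06, and without control replicate 2 it was 10 of 10 in both, with medians of 0.21 and 0.20. Without 3AP replicate 1 the median in 3AP against control was 0.08. In PLX3AP against control it was 0.08 without PLX3AP replicate 3, and 10 of 10 values were above 0 without PLX3AP replicate 1. In PLX3AP against 3AP, 7 of 10 were above 0 without 3AP replicate 1 or without PLX3AP replicate 1, with medians of 0.12 and 0.08. The 95% intervals set bounds on what these libraries could have missed. In 3AP against control, 9 of the 10 upper bounds lay below a 2-fold difference, and the highest, that of Junb, was at 2-fold. The lowest bound was 0.552-fold, for Fos.

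**Figure D1:**
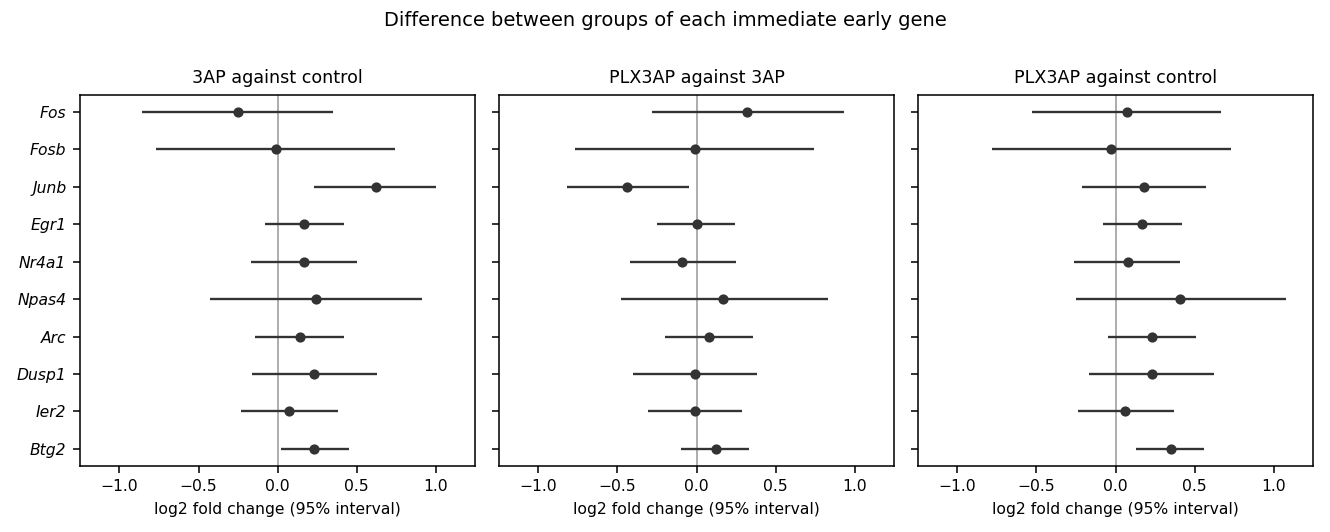
Log2 fold change (x axis) of each immediate early gene (y axis) in the 3 comparisons, as points with 95% intervals from edgeR's quasi-likelihood fit. The intervals that leave out 0 are those of Junb and Btg2 in 3AP against control, Junb in PLX3AP against 3AP and Btg2 in PLX3AP against control.

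Of the 3 AP-1 genes, Junb was the one whose own highest group mean was in 3AP. Junb encodes a JUN family subunit of the AP-1 dimer (chr8:84974484-84978718, minus strand, mm10). It was at 7.91, 9.91 and 12.6 CPM in control, 17.1, 16.9 and 12.6 CPM in 3AP, and 10.9, 10.5 and 13.0 CPM in PLX3AP libraries. All 3 libraries of 3AP were above all 3 of control, by a narrow margin between the lowest 3AP and the highest control library, and the same held in TPM (transcript abundance, scaled to transcript length and library total). PLX3AP overlapped both. Of all tested genes, 13.6% had all 3 libraries of 3AP above all 3 of control in CPM.

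Junb was 1.53-fold higher in 3AP than in control, with a log2 fold change of 0.62 ± 0.18 (SE), a 95% interval of 0.23 to 1.00, an unadjusted p of 0.0044 and an adjusted p of 0.072 in edgeR. The adjusted p ranged from 0.011 to 0.28 over the 15 alternatives. It was under 0.05 with DESeq2 (0.031), without the filter on low counts (0.011), without control replicate 3 (0.027) and without 3AP replicate 3 (0.033). In PLX3AP the log2 fold change from 3AP was -0.44 ± 0.18 (SE), with a 95% interval of -0.82 to -0.05 and an adjusted p of 0.31. PLX3AP and control differed by 0.18 ± 0.18 (SE) on that scale, with an adjusted p of 0.77.

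Markers of other cells differed between the same groups. The share of all tested genes that passed was 4.93% in 3AP against control and 3.73% in PLX3AP against 3AP. Of 8 microglial markers, 6 rose in 3AP against control and 7 fell in PLX3AP against 3AP. Of 6 endothelial markers, 5 rose and 4 fell, and their sum was 192 to 206 CPM in control, 312 to 356 CPM in 3AP and 194 to 219 CPM in PLX3AP libraries. Of the 4 tested among 6 blood leukocyte markers, 3 rose and 3 fell, with sums of 1.03 to 3.7, 8.54 to 21.3 and 1.22 to 2.1 CPM. The T cell marker Cd3e and the B cell marker Ms4a1 did not pass the filter on low counts and were not tested. Cd3e had 2 to 9 estimated counts per 3AP library and Ms4a1 had 0 to 1. Of the granule cell markers, 0 of 6 passed in each comparison, with sums of 3978 to 4221, 3382 to 3822 and 3831 to 4167 CPM, and 0 of 6 Purkinje cell markers passed. Of 6 astrocyte markers, 1 rose and 1 fell in 3AP against control and 1 fell in PLX3AP against 3AP. The marker that rose was Gfap, 3.53-fold higher in 3AP than in control and 2.77-fold lower in PLX3AP than in 3AP. Of 4 meningeal fibroblast markers, 1 rose (Dcn, 2.57-fold) and 2 fell (Dcn, 3.06-fold, and Col1a1). The 6 choroid plexus markers, of which 0 passed in each comparison, differed widely between libraries of a group, with sums of 115 to 4003 CPM in control, 622 to 1950 CPM in 3AP and 27.5 to 2029 CPM in PLX3AP. The part of any of these cells in the level of Junb was not tested.

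Fos encodes the partner that AP-1 forms with JUN proteins (chr12:85473890-85477273, plus strand). It was at 21.7, 36.1 and 21.9 CPM in control, 30.5, 21.3 and 15.1 CPM in 3AP and 28.8, 27.7 and 27.2 CPM in PLX3AP libraries. The highest library was control replicate 2 and the lowest 3AP replicate 3, and the groups overlapped. The log2 fold change in 3AP against control was -0.25 ± 0.27 (SE), an interval of 0.552-fold to 1.28-fold, with an adjusted p of 0.70. Without control replicate 2 it was 0.03. In PLX3AP against 3AP the log2 fold change was 0.32 ± 0.27 (SE), an interval of 0.824-fold to 1.9-fold, with an adjusted p of 0.72. Its fitted difference in 3AP against control thus had the opposite sign to that of Junb, and the difference between these genes was not tested.

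Fosb, whose long and short proteins also join AP-1 (chr7:19302696-19310051, minus strand), was the scarcest of the 10 by reads, with 24 to 69 estimated counts per library. It was at 2.11, 3.08 and 2.00 CPM in control, 3.19, 1.56 and 2.38 CPM in 3AP, and 1.32, 3.12 and 2.58 CPM in PLX3AP libraries. The 3 fitted differences were -0.01, -0.01 and -0.03 on the log2 scale, each with an SE of 0.35, with upper 95% bounds of 1.68-fold, 1.67-fold and 1.66-fold. The ratio of counts to TPM for Fosb, which moves with the transcript lengths that the estimate assigned, varied 1.62-fold between libraries, while it varied by at most 1.13-fold for the 9 others. GENCODE M21 lists 7 transcripts of Fosb. In TPM the control libraries lay close together at 1.39, 1.44 and 1.35, although their CPM did not.

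**Figure D2:**
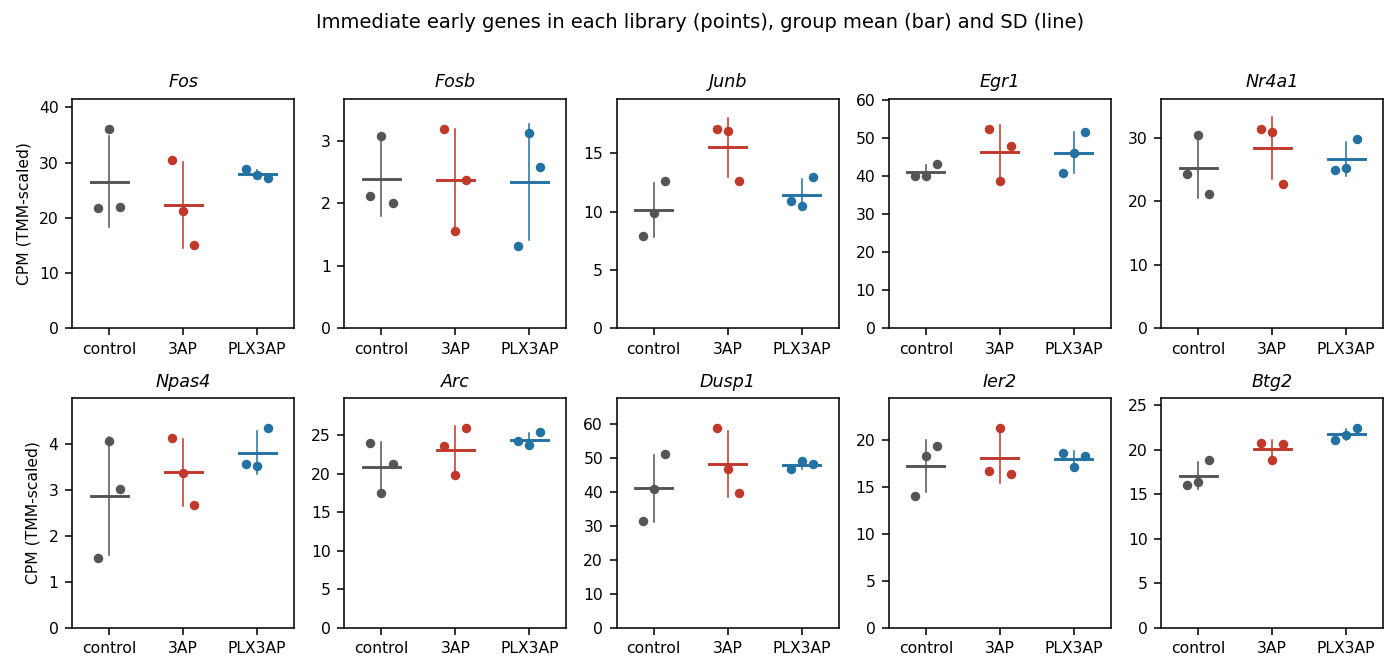
CPM after TMM scaling (y axis, from 0) of each of the 10 genes in the control, 3AP and PLX3AP libraries (x axis), with points for libraries, bars for the means of 3 libraries and lines for 1 SD. The points of 3AP lie above those of control for Junb and Btg2, and the 3 PLX3AP points of Fos and Dusp1 lie close together.

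Egr1, Nr4a1 and Npas4 are transcription factors outside AP-1. Egr1, a zinc finger factor (chr18:34859823-34864984, plus strand), was at 40.0, 39.9 and 43.1 CPM in control, 52.3, 38.6 and 47.9 CPM in 3AP, and 40.8, 46.1 and 51.4 CPM in PLX3AP libraries. Its 3AP libraries held both the highest and the lowest value of the 9. The log2 fold change was 0.17 ± 0.11 (SE) in 3AP and 0.17 ± 0.11 (SE) in PLX3AP against control, with adjusted p-values of 0.50 and 0.66. It had 743 to 1076 estimated counts per library, and its 95% interval in 3AP against control reached from 0.949-fold to 1.34-fold.

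Nr4a1 encodes the orphan nuclear receptor NUR77 (chr15:101254269-101274795, plus strand). It was at 24.3, 30.4 and 21.1 CPM in control, 31.4, 30.9 and 22.7 CPM in 3AP, and 24.9, 25.3 and 29.8 CPM in PLX3AP libraries. The groups overlapped, and the log2 fold changes were 0.17, -0.09 and 0.08, each with an SE of 0.15. Npas4 encodes a bHLH-PAS factor that is induced by calcium entry in neurons and hardly by other stimuli (chr19:4984355-4990316, minus strand). It was at 1.52, 4.06 and 3.02 CPM in control, 4.12, 3.36 and 2.67 CPM in 3AP, and 3.57, 3.52 and 4.34 CPM in PLX3AP libraries. Control replicate 1 was the lowest of the 9 for Npas4. The log2 fold change of Npas4 was 0.24 ± 0.31 (SE) in 3AP and 0.41 ± 0.31 (SE) in PLX3AP against control. Without control replicate 1 the former was -0.06. The upper bound of the latter, at 2.11-fold, was the highest of the 10 genes in that comparison.

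Arc, Dusp1, Ier2 and Btg2 act at synapses, in feedback or on growth. Arc encodes a synaptic protein that promotes the internalisation of AMPA receptors (chr15:74669083-74672570, minus strand). It was at 24.0, 17.5 and 21.2 CPM in control, 23.6, 19.8 and 25.9 CPM in 3AP, and 24.2, 23.7 and 25.4 CPM in PLX3AP libraries. The groups overlapped, and the log2 fold change was 0.14 ± 0.13 (SE) in 3AP and 0.23 ± 0.13 (SE) in PLX3AP against control, with adjusted p-values of 0.64 and 0.60.

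Dusp1 encodes a phosphatase that inactivates MAP kinases (chr17:26505590-26562128, minus strand). It was at 31.3, 41.0 and 51.1 CPM in control, 58.8, 46.7 and 39.6 CPM in 3AP, and 46.8, 49.2 and 48.2 CPM in PLX3AP libraries. Controls and 3AP libraries were spread over overlapping ranges, while the PLX3AP libraries lay within that overlap. The log2 fold change was 0.23 ± 0.18 (SE) in 3AP and 0.23 ± 0.18 (SE) in PLX3AP against control. Ier2, a small nuclear protein of little known function (chr8:84661331-84662852, minus strand), was at 14.0, 18.2 and 19.3 CPM in control, 16.7, 21.2 and 16.3 CPM in 3AP, and 18.6, 17.1 and 18.2 CPM in PLX3AP libraries. Its fitted differences were 0.07, -0.01 and 0.06 on the log2 scale, each with an SE of 0.14.

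Btg2, an antiproliferative protein that acts with the CCR4-NOT complex on mRNA decay (chr1:134075170-134079120, minus strand), had the smallest spread between libraries of a group. It was at 16.0, 16.4 and 18.8 CPM in control, 20.7, 18.8 and 20.6 CPM in 3AP, and 21.1, 21.6 and 22.4 CPM in PLX3AP libraries. All 3 libraries of each treated group were above all 3 of control in CPM and in TPM, though 3AP replicate 2 and control replicate 3 nearly met in CPM. The PLX3AP libraries were also above the 3AP libraries in CPM, but in TPM these groups overlapped. All 3 libraries of PLX3AP lay above all 3 of control for 7.86% of all tested genes, and above all 3 of 3AP for 7.66%.

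The log2 fold change of Btg2 was 0.23 ± 0.10 (SE) in 3AP against control, with a 95% interval of 0.02 to 0.45 and an adjusted p of 0.26. It was 0.35 ± 0.10 (SE) in PLX3AP against control, a 1.27-fold difference with an interval of 0.13 to 0.56, an unadjusted p of 0.0043 and an adjusted p of 0.30. Over 15 alternatives the adjusted p of the latter ranged from 0.11 to 0.69. PLX3AP and 3AP differed by 0.12 ± 0.10 (SE), with an adjusted p of 0.73. Thus Junb had its highest group mean in 3AP and Btg2 in PLX3AP.

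On the TPM scale, which allows levels to be compared between genes, Dusp1 was the highest of the 10 in control at 37.5 ± 8.35 TPM (SD, n = 3). Fos followed at 27.3 ± 8.86 TPM and Egr1 at 21.5 ± 0.317 TPM. Ier2 was at 21.1 ± 2.89, Nr4a1 at 18.3 ± 3.44, Arc at 11.6 ± 1.92, Btg2 at 10.7 ± 0.486 and Junb at 10.1 ± 1.92 TPM. The lowest were Fosb at 1.39 ± 0.0451 and Npas4 at 1.34 ± 0.56 TPM. Of the neighbours in that order, Fos and Egr1, Nr4a1 and Arc, and Junb and Fosb had control libraries that did not overlap, and the other neighbours overlapped. Dusp1 was also first by mean in 3AP (46.3 TPM) and PLX3AP (46.1 TPM). Junb moved from rank 8 in control to rank 6 in 3AP, at a mean of 16.3 TPM, and was at rank 8 in PLX3AP.

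The spread within groups was wide for several members. Pooled over the 3 groups, the SD of log2 CPM was 0.50 for Fosb, 0.45 for Npas4 and 0.38 for Fos, beside a median of 0.16 over all tested genes. Fosb and Npas4 were also the members with the fewest reads, but Fos had 312 to 703 estimated counts per library. Btg2 had the lowest value at 0.09. In the PLX3AP libraries the SD of Fos was 0.04, that of Dusp1 0.04, that of Arc 0.05 and that of Ier2 0.06, where their control libraries gave 0.42, 0.35, 0.23 and 0.24. The SD was smaller in PLX3AP than in control for 8 of 10 members and smaller than in 3AP for 9 of 10, against 43.4% and 42% of all tested genes. It was also smaller in 3AP than in control for 7 of 10 members, against 48.4% of all tested genes. Each SD rests on 3 libraries, and these differences in spread were not tested.

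Individual libraries carried part of the pattern across genes. Each gene's log2 CPM was set to a mean of 0 and an SD of 1 over the 9 libraries, and the 10 genes were averaged per library. Control libraries were at -1.15, -0.13 and -0.20, 3AP libraries at 0.85, -0.00 and -0.25, and PLX3AP libraries at -0.06, 0.26 and 0.68. In control replicate 1, 9 of 10 genes were below their own mean, and 5 (Junb, Npas4, Dusp1, Ier2 and Btg2) had their lowest value of the 9 libraries there. In 3AP replicate 1, 9 of 10 were above their mean and 5 (Fosb, Junb, Egr1, Nr4a1 and Dusp1) were at their highest. PLX3AP replicate 3 had all 10 above their mean, with Npas4 and Btg2 at their highest. The 3AP libraries thus overlapped both other groups in this average. The time from the last handling of a mouse to the removal of its cerebellum is not given in the labels, and its part in these levels was not tested.

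**Figure D3:**
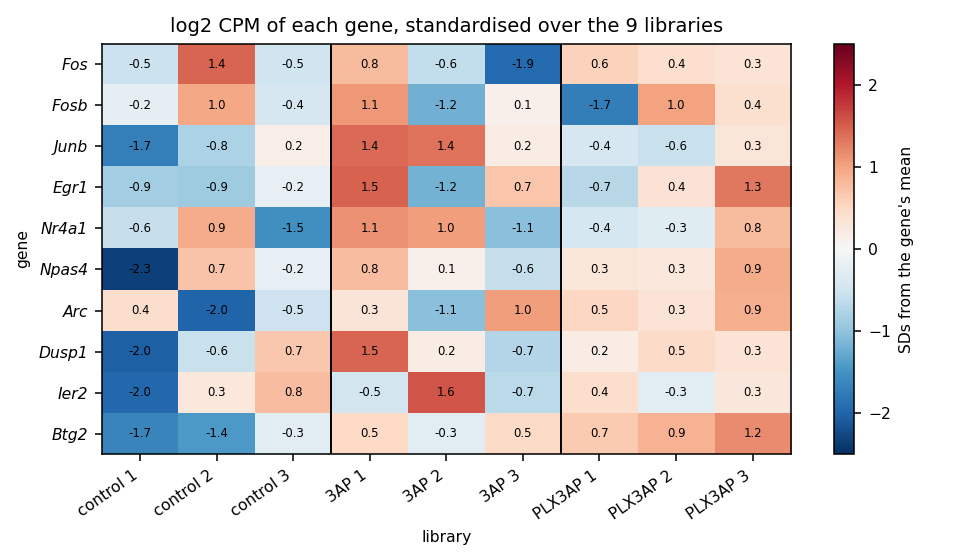
Log2 CPM of each gene (y axis) in each library (x axis), as SDs from that gene's mean over the 9 libraries (colour and printed value), with lines between the control, 3AP and PLX3AP groups. Control replicate 1 is below the mean for 9 of 10 genes and 3AP replicate 1 above it for 9 of 10.

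The members did not all follow each other. The Pearson r of a gene with the mean of the 9 others, over the 9 libraries and as a description, was 0.84 for Npas4 and 0.82 for Dusp1, 0.60 for Junb and for Egr1, 0.26 for Ier2 and -0.05 for Arc. Among 11967 other genes with a mean of 5 CPM or more, the 6 whose log2 CPM followed the average of the 10 members most closely were Rapgef3, Qars, Tk2, 1600014C10Rik, Tob2 and Mnt, with r of 0.90 to 0.97 over 9 libraries. Rapgef3, which encodes the cyclic AMP sensor EPAC1, had an r of 0.97 and a rank correlation of 0.95. After the group means were taken out its r was 0.96, so the likeness was also present between libraries of a group. How much of it lies there was not measured. Rapgef3 was at 23.6 CPM in control replicate 1 and 32.3 CPM in 3AP replicate 1, its lowest and highest libraries. These genes were picked as the highest of many, and they share library, depth and scaling with the members, so no p is given.

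Relatives of the 10 genes, such as other FOS, JUN, EGR, NR4A and KLF genes, were 27, of which 25 could be tested and Fosl1 and Egr2 could not. In 3AP against control 1 rose and 0 fell, and in PLX3AP against 3AP 0 rose and 1 fell. In PLX3AP against control none was called with edgeR. Their median log2 fold changes were 0.07, -0.12 and -0.04. Of all tested genes, 4.93%, 3.73% and 0.12% passed in these comparisons. Ier5, an immediate early gene linked to the heat shock factor HSF1, rose from 18.0 ± 1.36 to 24.2 ± 1.30 CPM (SD, n = 3) in 3AP, a log2 fold change of 0.43 ± 0.10 (SE) with an adjusted p of 0.024. Its PLX3AP libraries were at 19.9, 19.7 and 21.8 CPM. The call was lost without control replicate 1 or 2 or 3AP replicate 1 or 2, with adjusted p of 0.085 to 0.11, and with TPM or the replicate block (0.056 to 0.087).

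Maff, a small MAF factor that pairs with other leucine zipper proteins, was at 2.26, 1.59 and 2.34 CPM in control, 5.15, 3.51 and 2.91 CPM in 3AP and 1.76, 1.63 and 1.77 CPM in PLX3AP libraries. The 3AP libraries lay above the 6 others. Maff fell in PLX3AP against 3AP, with a log2 fold change of -1.17 ± 0.27 (SE) and an adjusted p of 0.027, and in 3AP against control its value was 0.90 ± 0.26 (SE) with an adjusted p of 0.078. The former call was lost without 3AP replicate 1 or 2 or any PLX3AP library (adjusted p of 0.053 to 0.17), and with TPM or the replicate block (0.054 to 0.11). The closest relatives of the members by family were also read in 3AP against control, chosen after their values were seen. Jun was at 0.01 ± 0.10 (SE) on the log2 scale, Jund at 0.07 ± 0.11, Egr3 at -0.14 ± 0.62, Egr4 at -0.62 ± 0.20, Nr4a2 at -0.35 ± 0.17, Nr4a3 at -0.52 ± 0.26 and Fosl2 at -0.42 ± 0.29, and none of these passed the test. The libraries of Egr4 were at 4.81, 4.83 and 6.34 CPM in control and 3.68, 3.31 and 3.39 CPM in 3AP and did not overlap, while its adjusted p was 0.11.

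Other activity-regulated genes were 15, all tested, and whether immediate early factors drive each of them was not tested. In 3AP against control 1 rose and 1 fell, in PLX3AP against 3AP 1 fell, and in PLX3AP against control none was called with edgeR. The medians were -0.13, -0.07 and -0.17. The shares of all tested genes that passed were 4.93%, 3.73% and 0.12%. Ptgs2, which encodes the prostaglandin synthase COX-2 and is made by neurons and by inflamed vessels and myeloid cells, was at 0.688, 0.668 and 0.829 CPM in control, 5.25, 5.06 and 4.56 CPM in 3AP, and 1.10, 0.316 and 1.48 CPM in PLX3AP libraries. It rose by 2.76 ± 0.40 (SE) on the log2 scale in 3AP, with an adjusted p of 0.0011, and fell by 2.37 in PLX3AP against 3AP, with an adjusted p of 0.0027. The latter call was lost on log2(TPM + 0.1), at an adjusted p of 0.079. The microglial and endothelial marker sums given for Junb differed between the same groups, and their part in the level of Ptgs2 was not tested.

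In 3AP against control, Ptgs2, Rgs2, Plk3, Inhba and Dusp4 had log2 fold changes above 0, and the other activity-regulated genes of this list were below 0. Bdnf, the brain-derived neurotrophic factor and a classic target of CREB and Npas4, was the 1 gene of the list called lower. It was at 22.4, 28.3 and 20.1 CPM in control, 16.6, 15.7 and 15.5 CPM in 3AP, and 18.4, 15.2 and 13.6 CPM in PLX3AP libraries. Both treated groups lay below all controls. Bdnf fell in 3AP against control by 0.57 ± 0.14 (SE) on the log2 scale, with an adjusted p of 0.037, and its value in PLX3AP against control was -0.59 ± 0.14 (SE) with an adjusted p of 0.23. The call in 3AP was lost without control replicate 1 or 2 or any 3AP library (adjusted p of 0.091 to 0.18), and with TPM or the replicate block (0.054 to 0.28). Granule cells are a main source of Bdnf in the cerebellum, and their markers, with 0 of 6 called, had a median log2 fold change of -0.18 in 3AP against control. Their part in the level of Bdnf was not tested.

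Upstream factors and kinases, from SRF, its ELK partners and CREB with its coactivators to MEF2, RSK, ERK, MEK and CAMK4, were 24, all tested, and their medians were -0.01, -0.02 and -0.02. In 3AP against control 1 rose, and in PLX3AP against 3AP 1 fell, both times Elk3, while none was called in PLX3AP against control with edgeR. The shares of all tested genes that passed were 4.93%, 3.73% and 0.12%, in the same order. Elk3 encodes an SRF partner that is abundant in endothelial cells. It was at 8.01, 7.29 and 8.34 CPM in control, 11.9, 14.1 and 10.9 CPM in 3AP, and 9.06, 6.42 and 7.87 CPM in PLX3AP libraries, with 3AP above the 6 others. The log2 fold changes were 0.64 with an adjusted p of 0.034 and -0.66 with an adjusted p of 0.034. The first call was lost without any 1 control library or 3AP replicate 1 or 2 (adjusted p of 0.064 to 0.15), and the second without 3AP replicate 1 or 2 or PLX3AP replicate 2 or 3 (0.098 to 0.17). Both were lost with TPM or the replicate block, and the second also in a fit of only the 6 libraries compared (0.072 to 0.26). Endothelial markers differed between these groups as given for Junb, and their part in the level of Elk3 was not tested.

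**Figure D4:**
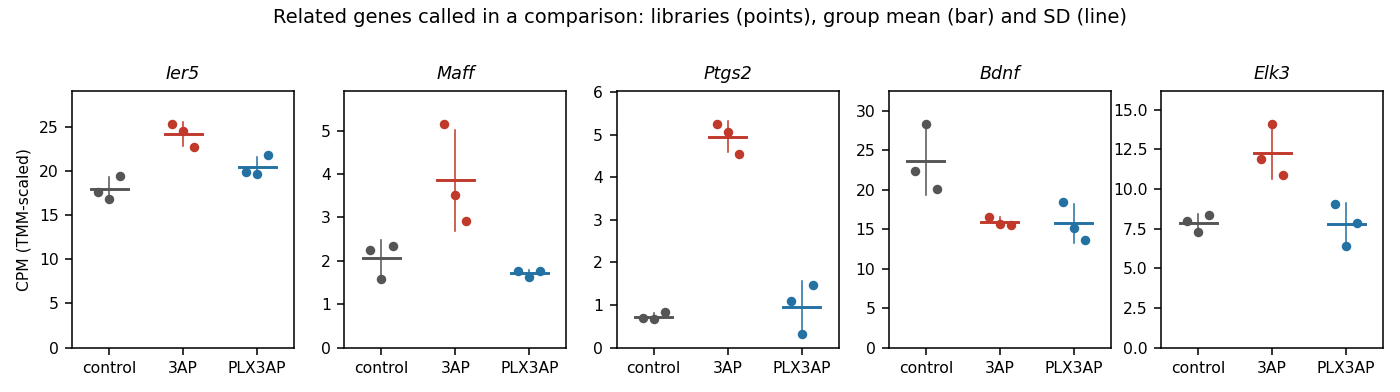
CPM after TMM scaling (y axis, from 0) of Ier5, Maff, Ptgs2, Bdnf and Elk3, the related genes that passed the test in at least 1 comparison, in the control, 3AP and PLX3AP libraries (x axis), with points for libraries, bars for means and lines for 1 SD. The 3AP points of Ier5, Maff, Ptgs2 and Elk3 lie above those of both other groups, and the Bdnf points of both treated groups lie below those of control.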

How the data were processed

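The 18 deposited files hold, for each of 9 libraries, expected counts and TPM in 55808 rows. Tools named in the submitters' processing notes are fastp, HISAT2, StringTie and RSEM, with mm10 as the build. Versions, annotation and strandedness were not stated there. The authors' expected counts (28.7 to 30.8% of those above 0 not whole) estimate reads per gene, and their TPM are scaled to transcript length and library total. Estimated counts divide reads between similar or overlapping genes. Rows without a name (1884, with 0.526 to 0.66% of counts) were left out. Counts were rounded and fitted over all 9 libraries in edgeR 4.0.16 (R 4.3.3) with filterByExpr, TMM and a robust quasi-likelihood model of 3 groups, tested by 3 two-sided contrasts. Calls were made at an adjusted p under 0.05. Alternatives were DESeq2 1.42.0, limma-voom and limma-trend on log2 TPM (limma 3.58.1), other scaling or filtering, a replicate block and leaving out each library. The fit was also run on simulated counts with 200 planted genes per comparison. It recovered 44.8 to 50.7% of planted 1.5-fold, 61.2 to 73.1% of 2-fold and 83.3 to 92.4% of 4-fold differences. Of 145 to 148 calls per comparison, 10 to 11 were false.

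The members and gene lists were chosen with earlier results of these data known. Named were all 10 members, the related genes called in a comparison, and the 6 genes most like the members. Gene coordinates are those of GENCODE M21 on GRCm38, and promoters those of RefSeq. Every CPM value and log2 fold change was calculated here from the deposited counts.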

Additional observations from a re-analysis of the deposited data

How the results depend on the processing

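In 3AP against control, 820 genes passed the test, and 494, 447 and 419 did with limma-trend on log2(TPM + 1), log2(TPM + 0.1) and log2(TPM + 1) without a filter, and 476 to 785 when single libraries were left out. For PLX3AP against 3AP, 621 became 350 on log2(TPM + 0.1), 361 on unfiltered log2(TPM + 1), and 408 to 725 with a library left out. For PLX3AP against control, 20 became 110 with DESeq2, 71 without a filter on low counts, 10 with the replicate block, and 7, 7 and 4 in the same order of TPM settings. Leaving out single libraries gave 7 to 125, the highest without PLX3AP replicate 1. Members called in 3AP against control were 1 with DESeq2 and 1 without the filter, and 0 to 1 with a library left out.

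The labels do not say whether the replicate numbers pair the libraries. The correlations below cannot show whether same-numbered libraries were collected or processed together. Deviations of same-numbered libraries from their group means correlated at -0.203 to 0.093 over 9 pairs, and 0 libraries correlated best with their own number. With the replicate block 580, 504 and 10 genes and 0 members passed.

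Of 150 alternative member values per comparison, 7, 20 and 7 changed sign. In PLX3AP against 3AP, Dusp1 was at 0.01 with limma-voom and on TPM, Egr1 at 0.00 with limma-voom and 0.01 on TPM, and Fosb at 0.01 on log2(TPM + 1) with or without a filter. Fosb in 3AP against control was at 0.02 with the block. With single libraries left out, log2 fold changes in 3AP against control ran from -0.55 to 0.03 (Fos), -0.28 to 0.22 (Fosb), -0.06 to 0.17 (Ier2) and -0.06 to 0.57 (Npas4). In PLX3AP against 3AP they ran from -0.02 to 0.17 (Arc), -0.13 to 0.16 (Dusp1), -0.12 to 0.09 (Egr1), -0.28 to 0.26 (Fosb) and -0.08 to 0.12 (Ier2), and in PLX3AP against control from -0.05 to 0.35 (Fos), -0.29 to 0.25 (Fosb), -0.06 to 0.15 (Ier2) and -0.04 to 0.23 (Nr4a1). The cause was not tested. Fosb and Npas4 had the fewest counts, at 24 to 69 and 31 to 91 per library, which limits the precision of their values.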

Other observations

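Genes of stress responses that can move with immediate early genes were also read. The share of all tested genes that passed was 4.93% in 3AP against control and 3.73% in PLX3AP against 3AP. Of 10 glucocorticoid-responsive genes, 2 rose and 1 fell in 3AP against control, 1 fell in PLX3AP against 3AP, and none was called in PLX3AP against control with edgeR, with medians of 0.16, -0.20 and -0.03 on the log2 scale. Sult1a1, a sulfotransferase, rose from 8.30 ± 2.73 to 29.8 ± 5.38 CPM (SD, n = 3) and was at 8.63 ± 1.08 CPM in PLX3AP. The metallothionein Mt1 rose by 1.05 on the log2 scale (adjusted p of 0.046) and Tsc22d3, which encodes the glucocorticoid-induced leucine zipper, fell by 0.43 (adjusted p of 0.032). The call of Mt1 was lost without any 1 control library or 3AP replicate 1 or 2 (adjusted p of 0.081 to 0.17), and with limma-voom, without the filter on low counts, in a fit of only the 6 libraries compared, with the replicate block and on unfiltered TPM (0.063 to 0.15). That of Tsc22d3 was lost without control replicate 2 or 3 or any 1 of the 3AP libraries (0.077 to 0.13), and with TPM or the replicate block (0.054 to 0.28).

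Of 7 heat shock genes, 1 fell in 3AP against control, 1 fell in PLX3AP against 3AP, and none was called in PLX3AP against control with edgeR, with medians of -0.29, 0.06 and -0.40. The chaperone Hsph1 was at 192 ± 13.3 CPM in control, 138 ± 9.05 CPM in 3AP and 145 ± 5.99 CPM in PLX3AP. Its log2 fold change in 3AP against control was -0.48 ± 0.08 (SE), with an adjusted p of 0.0026, and in PLX3AP against control -0.40 ± 0.08 (SE), with an adjusted p of 0.09. The small heat shock protein Hspb1 was at 17.0 ± 2.47, 21.3 ± 4.67 and 10.5 ± 2.11 CPM, and fell by 1.01 on the log2 scale in PLX3AP against 3AP, with an adjusted p of 0.0099. That call was lost without 3AP replicate 1 (adjusted p of 0.053).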
